A study of Homo sapiens with 48 samples.

Results

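The genes described here are 10 surface antigens of plasma cells and myeloma: SDC1, CD38, TNFRSF17, TNFRSF13B, SLAMF7, FCRL5, GPRC5D, CD27, CD28 and ITGB7. They were taken by symbol from the deposited count table, which holds 58302 genes, and each symbol matched 1 row. Plasma cells lose most surface proteins of the B cell as they mature and gain a new set, which is used to identify them and, in myeloma, to direct antibodies, antibody conjugates and engineered T cells. SDC1 (CD138) is the syndecan that defines the plasma cell, and CD38, an ectoenzyme that consumes NAD, SLAMF7 (CS1), TNFRSF17 (BCMA), GPRC5D and FCRL5 (FcRH5) are targets of treatments in use or in trial. Each of these proteins is folded and glycosylated in the endoplasmic reticulum before it reaches the surface, the compartment that IRE1 surveys. IRE1 (gene ERN1) is a stress sensor of that compartment, and its endoribonuclease splices the XBP1 mRNA to yield the transcription factor XBP1s.

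AMO1, a human myeloma line established from a plasmacytoma, carried doxycycline-inducible short hairpin RNAs (shRNAs), 3 to a construct. The shIRE1 genotype was labelled IRE1 sh7,8,9 and had clones 1 and 3, and the shXBP1 genotype was labelled XBP1 sh4,6,7 and had clones 1 and 18. Each clone was sampled without treatment (0 h) and after 24, 48 and 72 h in 0.2 µg/ml doxycycline, with 3 replicates at each time, which gave 16 groups and 48 RNA libraries. Every cell carried a construct and every treated replicate received the drug, and no library with a non-targeting shRNA was analysed here, so an effect of doxycycline or of shRNA expression as such cannot be told apart from that of the target. A clone grew from 1 cell, so differences between clones of a construct include whatever set those founder cells apart.

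Libraries held 19177855 to 40767202 counts, and levels are CPM, the counts scaled to a common library size with TMM factors, where 1 count was worth at most 0.0559 CPM. The targeted mRNA fell in each clone: ERN1 from 152 to 102 and from 438 to 125 CPM (means at 0 and 72 h) in shIRE1 clones 1 and 3, and XBP1 from 167 to 34.0 and from 170 to 37.9 CPM in shXBP1 clones 1 and 18. ERN1 in shIRE1 clone 3 was at 145 CPM at 24 h, near the untreated level of clone 1. In shXBP1 clone 1 ERN1 went from 188 to 314 CPM (0 and 72 h), and in shXBP1 clone 18 from 414 to 338. The part of these ERN1 levels in the differences between the shRNAs was not tested. IRF4, a transcription factor of plasma cells, fell from 1300.1 to 603 and from 1422 to 335 CPM in the shIRE1 clones, and it was 1413 at 0 h and 1607 at 72 h in shXBP1 clone 1 and 1623 and 1626 in clone 18. All 10 plasma cell markers checked were present, of which 4 are members, and PAX5, CD22, CD3D and CD2 did not exceed 0.0575 CPM in any library, although CR2, CD3E and CD8A reached 12.9, 17.3 and 4.14 CPM. At 72 h 7 plasma cell markers were lower and 2 higher in shIRE1 clone 1 (median log2 change -0.48) and 9 lower and 1 higher in clone 3 (-1.04), against 4 and 4 in shXBP1 clone 1 (0.02) and 6 and 0 in clone 18 (-0.41). The lower markers of both shXBP1 clones include XBP1, the target of the shRNA itself. Among all genes tested, 63.6% and 60.2% were called at 72 h in shIRE1 clones 1 and 3. In shXBP1 clones 1 and 18 it was 33.6% and 9.96%. Among the 6 plasma cell markers that are no members, PRDM1, XBP1, JCHAIN, IRF4 and MZB1 fell and POU2AF1 rose in both shIRE1 clones. Of 6 B cell and 6 T cell markers 3 each were tested there, and 2 and 3 rose in each clone, to sums of 12 to 13.2 and 17.4 to 20.7 CPM at 72 h from 2.71 to 4.55 and 7.53 to 10.6 at 0 h. In the shXBP1 clones 1 B cell marker rose, in clone 1, and no T cell marker was called. Of 4 myeloid markers 0 to 2 were tested in a clone, and 1 fell in each clone numbered 1. These lists move with the antigen changes given here, and their part in them was not tested. The library labelled shXBP1 clone 18, 72 h, replicate 3 stood apart. Its profile correlated at 0.994 with shXBP1 clone 1 and at 0.983 with its own clone, and at 79 of 79 genes that separated these clones by 3 or more on the log2 scale it lay nearer clone 1. Values without it are given where stated. Without it the means of ERN1, XBP1 and IRF4 at 72 h in shXBP1 clone 18 were 354, 40.9 and 1598 CPM. There 6 plasma cell markers were then lower and 1 higher (median log2 change -0.34). The library labelled shIRE1 clone 3, 24 h, replicate 1 correlated at 0.9925 with shIRE1 clone 1 and at 0.9909 with its own clone. Without it 8495 genes were called in that clone at 24 h, against 7947 with it, and none of the 20 antigen values that rest on it changed its call. The untreated libraries enter every change against 0 h. Those of shIRE1 clone 1 correlated at 0.988 with untreated shXBP1 clone 1 and at 0.972 with their own clone at 24 h. Those of shIRE1 clone 3 correlated at 0.987 with shXBP1 clone 1 at 24 h and at 0.978 with their own clone at 24 h. With their own clone at 24 h, those of shXBP1 clones 1 and 18 correlated at 0.989 and 0.996. Whether the untreated and treated libraries of a clone came from like stocks was not tested. This touches each change against 0 h given here, in the shIRE1 and shXBP1 clones, and each difference between such changes. Those of TNFRSF17, GPRC5D, SDC1 and FCRL5 are included.

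Of the 10 antigens, 9 were expressed above 1 CPM in all 48 libraries. CD27, a receptor of the tumor necrosis factor (TNF) family that plasma cells carry and many myelomas have lost, was under 1 CPM in all 48, with 1 to 27 counts a library, so its mRNA was at most barely detected in AMO1. By the stated rule for absence, failing edgeR's filter on low counts in the fit of all libraries, none of the 10 was absent, CD27 included, although CD27 did not pass in shXBP1 clone 18 alone. The antisense gene CD27-AS1, which overlaps CD27 exons on the opposite strand, had 3.11 to 7.42 CPM, and TAPBPL overlaps CD27 on the same strand. Whether the authors' counting used the strand was not stated, and the part of neighbouring transcripts in these few counts was not tested.

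Levels can be compared between genes only per length, and here CPM was divided by the summed exon length of each gene (GENCODE 44, GRCh38). This length joins all annotated exons of a gene, 1015 bases for TNFRSF17 and 12414 for FCRL5, and the order of genes depends on it. SDC1 mRNA was by far the most abundant, with 2621 ± 289, 2952 ± 304, 3535 ± 605 and 2184 ± 95.4 CPM per kb at 0 h in shIRE1 clones 1 and 3 and shXBP1 clones 1 and 18 (SD, n = 3). By mean CPM it ranked 2 of all genes. TNFRSF17 came next in each clone, at 171 to 369 CPM per kb, followed by GPRC5D at 70.4 to 206. CD38, SLAMF7 and CD28 lay at 18.8 to 82.7 CPM per kb, in an order that changed from clone to clone. In shIRE1 clone 1, SLAMF7 at 19.4 ± 1.70 and CD28 at 18.8 ± 0.411 CPM per kb did not differ beyond their spread, and CD38 at 40.6 ± 1.27 and SLAMF7 at 39.1 ± 0.366 in shIRE1 clone 3 differed by less than the sum of their SDs. ITGB7 ranged from 6.85 CPM per kb in shIRE1 clone 1 to 55.9 in shXBP1 clone 18, where it exceeded CD38, while FCRL5 (3.72 to 5.88) and TNFRSF13B (2.54 to 4.57) were low throughout on this scale. In CPM, FCRL5 lay above ITGB7 in untreated shIRE1 clone 1 (66.6 against 30.5) and shXBP1 clone 1 (70.0 against 41.4). It lay below ITGB7 in shIRE1 clone 3 and shXBP1 clone 18. CD27 was at 0.152 to 0.199 CPM per kb.

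**Figure D1:**
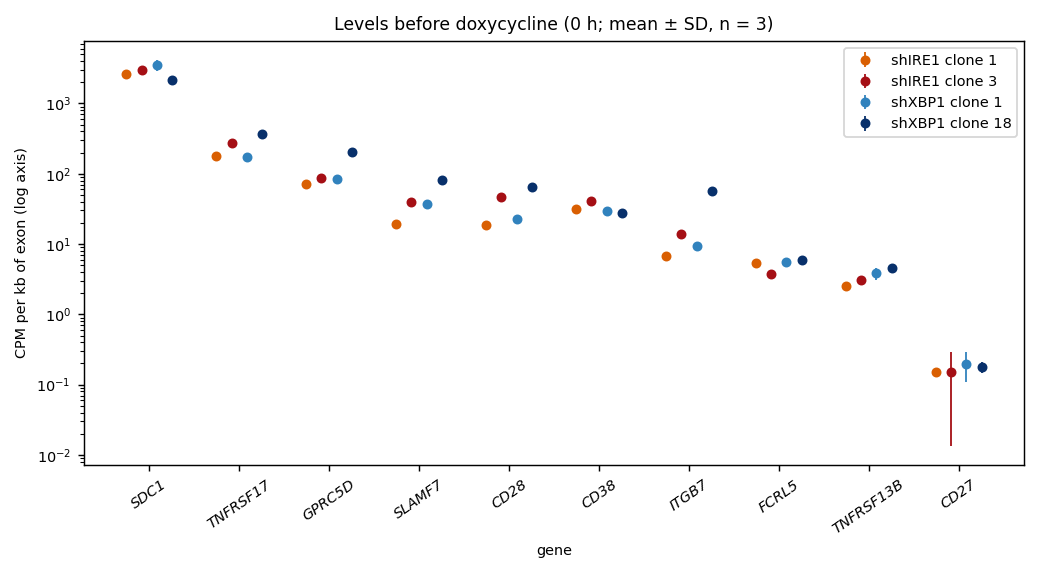
Levels of the 10 antigen mRNAs before doxycycline, as CPM per kb of exon on a log axis, with 1 point per clone (mean ± SD, n = 3 libraries). SDC1 lies at 2184 or above and CD27 below 1 in each clone, and shXBP1 clone 18 is the highest clone for TNFRSF17, GPRC5D, SLAMF7, CD28 and ITGB7.

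The untreated clones already differed in these antigens. Between shIRE1 clones 1 and 3, 7 of 10 members passed the test at 0 h against 40.6% of all genes, and between shXBP1 clones 1 and 18 6 passed against 51.3%. CD28 was at 90.1 to 94.1 CPM in shIRE1 clone 1, 216 to 230 in shIRE1 clone 3, 100.1 to 117 in shXBP1 clone 1 and 307 to 324 in shXBP1 clone 18. None of these ranges overlapped, and the log2 difference of shIRE1 clone 1 minus shXBP1 clone 18 was -1.78 ± 0.11 (SE; adjusted p = 1.3e-16). ITGB7 ran from 28.7 to 31.7 CPM in shIRE1 clone 1 to 238 to 255 in shXBP1 clone 18, a log2 difference of -3.03 ± 0.16 (adjusted p = 2.1e-18). For the other pairs, 5 members passed between the clones numbered 1 (32.3% of all genes), 8 between shIRE1 clone 1 and shXBP1 clone 18 (52.7%), 6 between shIRE1 clone 3 and shXBP1 clone 1 (52.2%) and 9 between shIRE1 clone 3 and shXBP1 clone 18 (39.1%). Each pair shares libraries with others. The count between the clones numbered 1 was 3 without shXBP1 clone 1, 0 h, replicate 1, where SDC1 reached 15245 CPM, the highest value of all libraries, against 11967 and 11102 in its companions.

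Most antigens changed after doxycycline in 3 of the 4 clones, and so did a large share of all genes. A gene passed where edgeR's quasi-likelihood test gave an adjusted p under 0.05. In shIRE1 clone 1, 7, 8 and 9 of 10 members passed at 24, 48 and 72 h, where 61.4%, 65.4% and 63.6% of all genes tested did. In shIRE1 clone 3, 7, 9 and 9 passed, against 46.2%, 63.2% and 60.2%. Of the members in shXBP1 clone 1, 7, 7 and 8 passed, against 26.7%, 32% and 33.6%. In shXBP1 clone 18, 0, 1 and 4 of 9 members tested passed, against 1.59%, 5.78% and 9.96%. At 24 h, 1 of those 9 had an unadjusted p under 0.05 and DESeq2 called 0. Without the library that stood apart, the counts in that clone were 3, 5 and 4, against 4.78%, 12.9% and 7.57% of all genes. With it, the 48 h call of TNFRSF17 was lost in 5 of 7 fits that left out 1 library (any of the 3 at 0 h, or replicate 1 or 2 at 48 h), and the 72 h calls of GPRC5D, SLAMF7 and ITGB7 were lost without any 1 of the 3 untreated libraries (adjusted p up to 0.091, 0.066 and 0.087). The direction was what set the clones apart, also within a construct. At 72 h, 8 members were lower and 1 higher in shIRE1 clone 3, and 4 lower and 5 higher in shIRE1 clone 1. In shXBP1 clone 1, 2 were lower and 6 higher. In shXBP1 clone 18, 4 were lower and 0 higher, with or without the library that stood apart. The median change over the members tested was -0.85, 0.07, 0.22 and -0.40 on the log2 scale at 72 h in shIRE1 clones 3 and 1 and shXBP1 clones 1 and 18, and over all genes tested it was 0.02, 0.02, -0.01 and -0.01. Without the library that stood apart the members' median in shXBP1 clone 18 was -0.28.

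**Figure D2:**
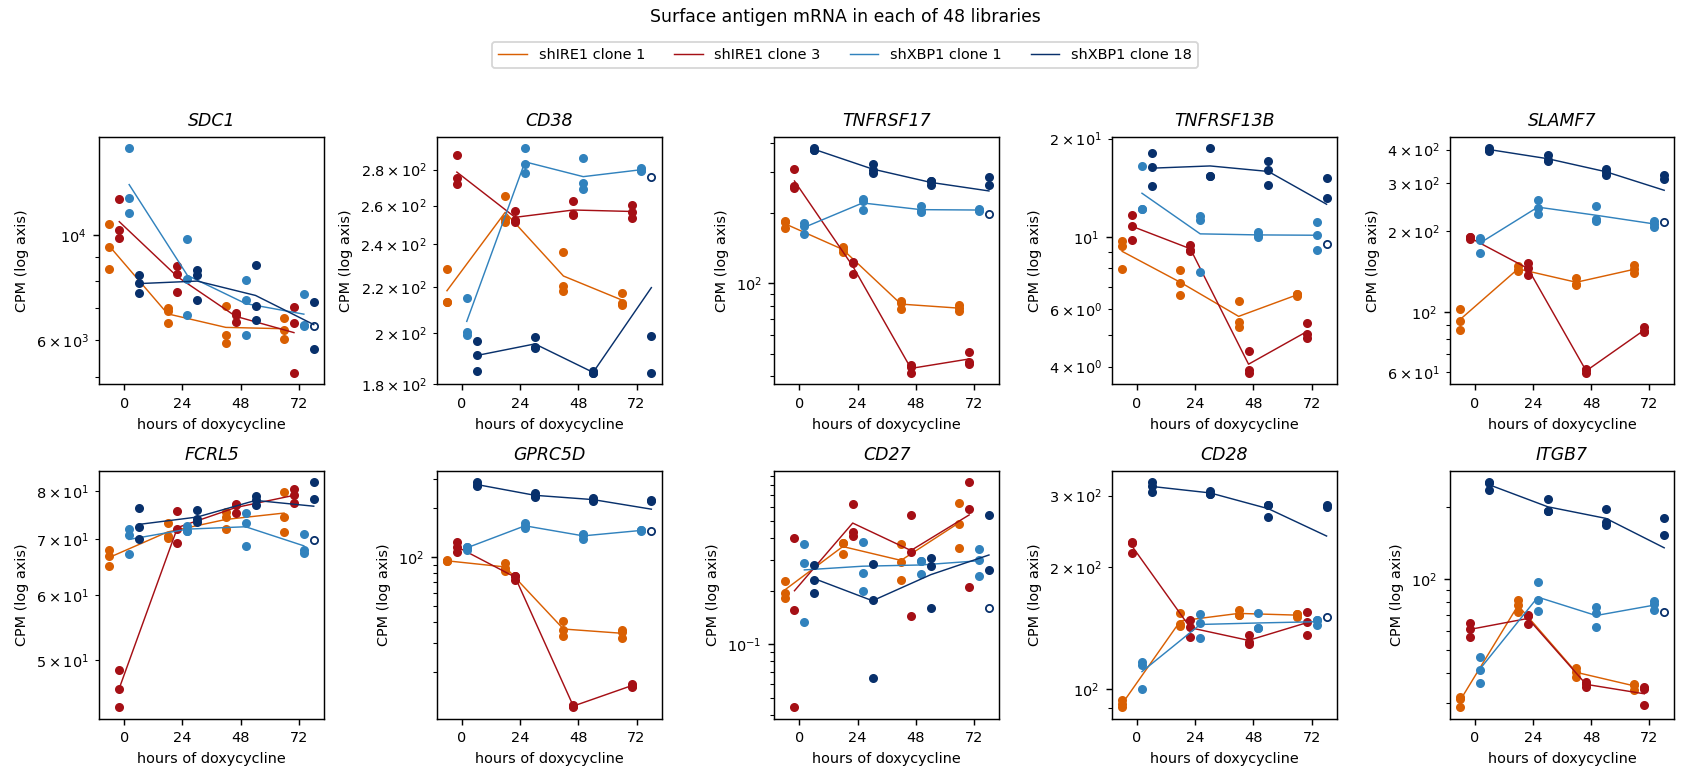
CPM (log axis) of each antigen mRNA in all 48 libraries against hours of doxycycline, with points for libraries, lines through the means of each clone, and an open circle for the shXBP1 clone 18 library that stood apart. TNFRSF17 and GPRC5D descend in both shIRE1 clones (orange, red), CD28 lies at 129 to 157 CPM in the treated libraries of both shIRE1 clones, and the open circle sits with shXBP1 clone 1 in most panels.

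TNFRSF17 (BCMA; GRCh38, chr16:11965210-11968068, plus strand) and GPRC5D (chr12:12940575-12952170, minus strand), both targets of T cell-engaging drugs, fell in both shIRE1 clones. BCMA is the receptor that binds the survival ligands APRIL and BAFF on long-lived plasma cells, and GPRC5D is an orphan G protein-coupled receptor. In shIRE1 clone 1 TNFRSF17 had 185, 183 and 173 CPM at 0 h, 140, 143 and 136 at 24 h, 84.1, 77.8 and 82.4 at 48 h, and 78.2, 80.5 and 76.0 at 72 h. Clone 3 went from 307, 255 and 260 CPM to 124, 110 and 122, then 41.2, 44.6 and 43.8, and last 45.3, 46.1 and 50.8. At every time the treated libraries of both clones lay below their untreated ones without overlap. The 72 h change was a log2 value of -1.21 ± 0.04 (adjusted p = 3.7e-14) in clone 1 and -2.54 ± 0.08 (adjusted p = 9.5e-13) in clone 3, or 2.31-fold and 5.84-fold lower. Whether RNA of each cell fell or cells with more of it were lost cannot be told apart in bulk libraries.

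In the shXBP1 clones TNFRSF17 changed less at 72 h than in the shIRE1 clones, with a rise in clone 1 and a fall in clone 18. shXBP1 clone 1 held 163, 182 and 176 CPM at 0 h and 205, 207 and 206 at 72 h, a rise of 0.22 ± 0.06 (adjusted p = 0.0093). shXBP1 clone 18 held 372, 379 and 373 CPM at 0 h and 263, 284 and 198 at 72 h, a log2 change of -0.59 ± 0.10 (adjusted p = 0.0027), and -0.45 without the third library (adjusted p = 7.4e-05). The change of the shIRE1 clones minus that of the shXBP1 clones was -0.82 ± 0.08, -1.80 ± 0.08 and -1.69 ± 0.08 at 24, 48 and 72 h (adjusted p = 8.3e-12, 3.1e-22 and 2.1e-21), with the same call whichever library was left out and within either pairing of single clones. SEs, intervals and p-values of such differences between the shRNAs, here and below, measure the spread among libraries of a group. They do not cover the spread between clones of a construct.

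GPRC5D fell from 94.0 to 95.7 CPM at 0 h to 82.4, 86.1 and 92.5 at 24 h, 40.5, 32.9 and 35.8 at 48 h, and 32.2 to 35.7 at 72 h in shIRE1 clone 1. Its values in shIRE1 clone 3 were 123, 108 and 116 at 0 h, 72.3, 76.9 and 77.1 at 24 h, 12.1, 12.4 and 12.5 at 48 h, and 16.8, 16.4 and 16.1 at 72 h. All treated libraries lay below the untreated ones of their clone, yet the 24 h change in clone 1, -0.13 ± 0.06, did not pass (adjusted p = 0.084, and 0.039 with RLE factors). The 48 h changes were -1.38 ± 0.07 and -3.24 ± 0.06, 2.60-fold and 9.42-fold lower. In shXBP1 clone 1 GPRC5D rose from 110 to 116 CPM over the untreated libraries to 144 to 146 at 72 h (log2 0.33 ± 0.05; adjusted p = 0.00028). In shXBP1 clone 18 it went from 270 to 286 CPM to 224, 220 and 144, a change of -0.49 ± 0.12 (adjusted p = 0.021), or -0.32 without the 144 CPM library. The difference between the shRNAs was -0.48 ± 0.08, -2.27 ± 0.09 and -2.07 ± 0.09 at the 3 times (adjusted p = 1e-05, 9.5e-24 and 1.8e-22).

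The 12 changes of GPRC5D, at 3 times in 4 clones, ran with those of TNFRSF17 (Pearson's r = 0.979 across 12 group means, which share 0 h libraries). Among 12009 genes compared on the same 12 points, those most like GPRC5D were CTNNA1, IGKC and IGKV3D-20 (r = 0.997, 0.997 and 0.991), a catenin, the constant region of the immunoglobulin kappa chain and a kappa variable gene whose reads may be shared with near-identical copies. Those most like TNFRSF17 were RNF122, HERPUD1 and ENTPD5 (r = 0.996, 0.995 and 0.994), and HERPUD1 is a membrane protein of the endoplasmic reticulum that takes part in the removal of misfolded proteins. These are descriptions of 12 points and carry no test.

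Because GPRC5D had the most negative change of the 10, the 250 bases before its start are shown (RefSeq, GRCh38.p14, chr12:12952171-12952420, minus strand, written 5′ to 3′), next to 30 bases around the one ETS and IRF match in each of CD38 (chr4:15778275-15778304, plus strand) and CD28 (chr2:203706615-203706644, plus strand). Capitals mark GGAANNGAAA, the composite site of ETS and IRF factors that IRF4 is known to bind, which CD28 holds on the opposite strand and GPRC5D does not hold.
GPRC5D: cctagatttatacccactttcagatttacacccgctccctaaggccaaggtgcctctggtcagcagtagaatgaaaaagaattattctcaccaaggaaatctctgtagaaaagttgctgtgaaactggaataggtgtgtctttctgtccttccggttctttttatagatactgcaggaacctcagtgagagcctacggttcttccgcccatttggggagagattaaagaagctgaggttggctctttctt
CD38: gttgggggtgGGAAGGGAAAcagagaaaag
CD28: caggtgcgtcTTTCAGTTCCcctcacactt
Of the 10 antigens, 8 had a window of 250 bases before and 50 after a RefSeq start (TNFRSF17 and SLAMF7 had none), and SDC1 had a pair of starts. GGAANNGAAA occurred in the windows of CD38 and CD28 and in 2.82% of all 35116 windows, GAAANNGAAA in no member's window and in 3.57% of all, and GACGTG, the core of the element that XBP1s is known to bind, in no member's window and in 7.81% of all. CCACG, a part of the endoplasmic reticulum stress element, occurred in those of SDC1, CD38 and CD28 and in 38.1% of all. The capitals are matches of letters only, and both strands were searched. The GGAANNGAAA matches of CD38 and CD28 begin 43 and 14 bases before the RefSeq starts. They lie inside the GENCODE loci given here for these genes, which start further upstream.

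TNFRSF13B (TACI; chr17:16929816-16972118, minus strand), the other receptor of BAFF and APRIL among the members, also fell, from a low level. Its exons overlap those of the pseudogene TBC1D27P on the same strand. Its CPM was 7.96, 9.40 and 9.71 at 0 h and 6.35, 5.49 and 5.28 at 48 h in shIRE1 clone 1, and 9.78, 10.8 and 11.7 against 4.48, 3.82 and 3.91 in shIRE1 clone 3. The 48 h libraries lay below the untreated ones in both, by log2 values of -0.66 ± 0.10 and -1.42 ± 0.10 (adjusted p = 1.5e-05 and 1.4e-08). In shXBP1 clone 1 it went from 16.5, 12.1 and 12.2 CPM to 11.1, 9.11 and 10.2 at 72 h (-0.45 ± 0.16; adjusted p = 0.046), a call that was lost without the 0 h library at 16.5 CPM (-0.28; adjusted p = 0.21) and without any 1 of the 72 h libraries (adjusted p = 0.064 to 0.17). The value in shXBP1 clone 18 at 72 h was -0.36 ± 0.15 (adjusted p = 0.14). It was -0.19 without the library that stood apart (adjusted p = 0.39), and -0.52 and called without 72 h, replicate 1 (adjusted p = 0.035). The shRNAs differed at 48 h by -0.81 ± 0.14 (adjusted p = 4.8e-06) and at 72 h by -0.36 ± 0.14 (adjusted p = 0.027), and at 24 h the difference was -0.08 ± 0.14. Between the clones numbered 1 the difference was -0.24 at 48 h (adjusted p = 0.35) and -0.02 at 72 h, and the 72 h call was lost in 7 of 24 fits that each left out 1 library (adjusted p up to 0.074, without shXBP1 clone 18, 72 h, replicate 1).

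CD27 (chr12:6444955-6451718, plus strand) held 6, 6 and 6 counts (0.229, 0.183 and 0.196 CPM) at 0 h and 13, 18 and 9 counts (0.479, 0.633 and 0.353 CPM) at 72 h in shIRE1 clone 1, a log2 change of 1.27 ± 0.36 (adjusted p = 0.0044). The counts in shIRE1 clone 3 were 4, 1 and 11 at 0 h and 19, 27 and 6 at 72 h, which overlap, and the change of 1.36 ± 0.61 did not pass (adjusted p = 0.069). Without the 0 h library of 11 counts it was 2.34 and without the 72 h library of 6 counts 1.71, both called (adjusted p = 0.02 and 0.015). Even the highest library was under 1 CPM. The difference between the shRNAs was not called with all libraries (log2 1.02 ± 0.51 at 72 h; adjusted p = 0.089), but at 72 h it was without shIRE1 clone 3, 0 h, replicate 3 (1.51; adjusted p = 0.018), shIRE1 clone 3, 72 h, replicate 3 (1.19; adjusted p = 0.035) or shXBP1 clone 18, 72 h, replicate 2 (1.29; adjusted p = 0.033).

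Among genes of the BAFF and APRIL axis and of gamma-secretase, the protease that sheds BCMA, 9 were tested in the shIRE1 clones. At 72 h 4 rose and 3 fell in shIRE1 clone 1, and 5 rose and 3 fell in shIRE1 clone 3. There 63.6% and 60.2% of all genes tested were called. In shXBP1 clones 1 and 18, 8 were tested, with 0 to 2 rises and no fall, where 33.6% and 9.96% of all genes were called. Without the library that stood apart, clone 18 had 0 rises and 1 fall, beside 7.57% of all genes. APH1B, a gamma-secretase subunit, rose by 1.00 and 0.58, and TNFRSF13C, the BAFF receptor, by 0.89 and 0.53 in shIRE1 clones 1 and 3, from low levels (1.51 to 5.90 CPM over all libraries for TNFRSF13C). The median 72 h change of this list was 0.53 and 0.50 in the shIRE1 clones, and 0.09 and -0.08 in the shXBP1 clones. No gene of the GPRC5 family other than GPRC5D passed the filter in any clone.

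SDC1 (chr2:20200797-20225433, minus strand), the heparan sulfate proteoglycan that binds growth factors and matrix, fell in 3 of 4 clones. It went from 8457, 9408 and 10545 CPM at 0 h in shIRE1 clone 1 to 6692, 6297 and 6020 at 72 h, and in shIRE1 clone 3 from 9850, 10232 and 11913 CPM to 6507, 7043 and 5105. In shXBP1 clone 1 it had 15245, 11967 and 11102 CPM at 0 h and 7514, 6435 and 6457 at 72 h. The treated libraries lay below the untreated ones in these 3 clones, with log2 changes of -0.58 ± 0.07, -0.79 ± 0.10 and -0.93 ± 0.15 (adjusted p = 9.8e-07, 1.1e-05 and 0.0008). In shXBP1 clone 18 the values were 8217, 7530 and 7929 CPM at 0 h and 7225, 5749 and 6422 at 72 h, a change of -0.28 ± 0.10 that did not pass (adjusted p = 0.088), nor without the library that stood apart (adjusted p = 0.13), but did without 72 h, replicate 1 (-0.36; adjusted p = 0.03). Unlike TNFRSF17, SDC1 gave no called difference between the shRNAs: the values were -0.12, -0.16 and -0.08 at 24, 48 and 72 h, with 95% intervals of -0.36 to 0.12, -0.40 to 0.08 and -0.32 to 0.16. The missing call is no proof of a like response. shIRE1 clone 3 against shXBP1 clone 18 alone gave -0.49 at 72 h (adjusted p = 0.017). Between the clones numbered 1 the order was the opposite, with the larger fall in shXBP1 clone 1 (-0.93) and the smaller in shIRE1 clone 1 (-0.58). After 72 h SDC1 lay between 5105 and 7514 CPM in all 12 libraries of the 4 clones. Genes most like it over the 12 points were H1FX, VEGFB and PLEKHH3 (r = 0.977, 0.950 and 0.948).

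In the list of other syndecans and shedding enzymes, 2 of 6 genes tested rose and 2 fell in shIRE1 clone 1 at 72 h. In shIRE1 clone 3, 3 rose and 2 fell, and 63.6% and 60.2% of all genes were called in these clones. HPSE, the heparanase that cuts the heparan sulfate chains of syndecans, rose by 1.21 and 2.02 within 0.301 to 3.95 CPM. SDC3 fell, with log2 changes of -1.35 and -2.32, but did not exceed 0.815 CPM. ADAM17, a sheddase, fell in the shXBP1 clones, with changes of -0.32 and -0.28, the latter -0.22 and not called without the library that stood apart (adjusted p = 0.056).

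FCRL5 (chr1:157513377-157552515, minus strand), an Fc receptor-like protein that modulates B cell receptor signals, rose in both shIRE1 clones. It was the one member called higher in both at 48 and 72 h. CD27, under 1 CPM, also had positive changes in both at these times, called only in clone 1 at 72 h. In shIRE1 clone 3 FCRL5 had 48.6, 43.9 and 46.2 CPM at 0 h, 69.4, 75.7 and 72.0 at 24 h and 80.6, 77.6 and 79.3 at 72 h. In shIRE1 clone 1 it had 66.9, 68.0 and 64.9 CPM at 0 h and 71.5, 74.5 and 79.9 at 72 h. Neither clone's treated and untreated libraries overlapped at these times. The 72 h rises were 0.76 ± 0.05 (adjusted p = 1.1e-08) and 0.18 ± 0.04 (adjusted p = 0.0022) on the log2 scale, and the values were -0.05 ± 0.05 and 0.08 ± 0.06 in shXBP1 clones 1 and 18, neither called (0.14 in clone 18 without the library that stood apart; adjusted p = 0.13). The mean change of the shIRE1 clones minus that of the shXBP1 clones was 0.34 ± 0.05, 0.37 ± 0.05 and 0.45 ± 0.05 at 24, 48 and 72 h (adjusted p = 6.9e-07, 6.6e-08 and 5.5e-10). Between the clones numbered 1 alone it was 0.06 at 24 h and 0.10 at 48 h, neither called (adjusted p = 0.58 and 0.26). After treatment FCRL5 was at 67.3 to 82.1 CPM in all 36 libraries, and shIRE1 clone 3, with the largest of the 4 changes, had started lowest. Of the other Fc receptor-like genes 2 of 7 were tested in shIRE1 clone 1 and 4 in clone 3. At 72 h 0 and 2 were called higher and none lower, beside 63.6% and 60.2% of all genes called.

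**Figure D3:**
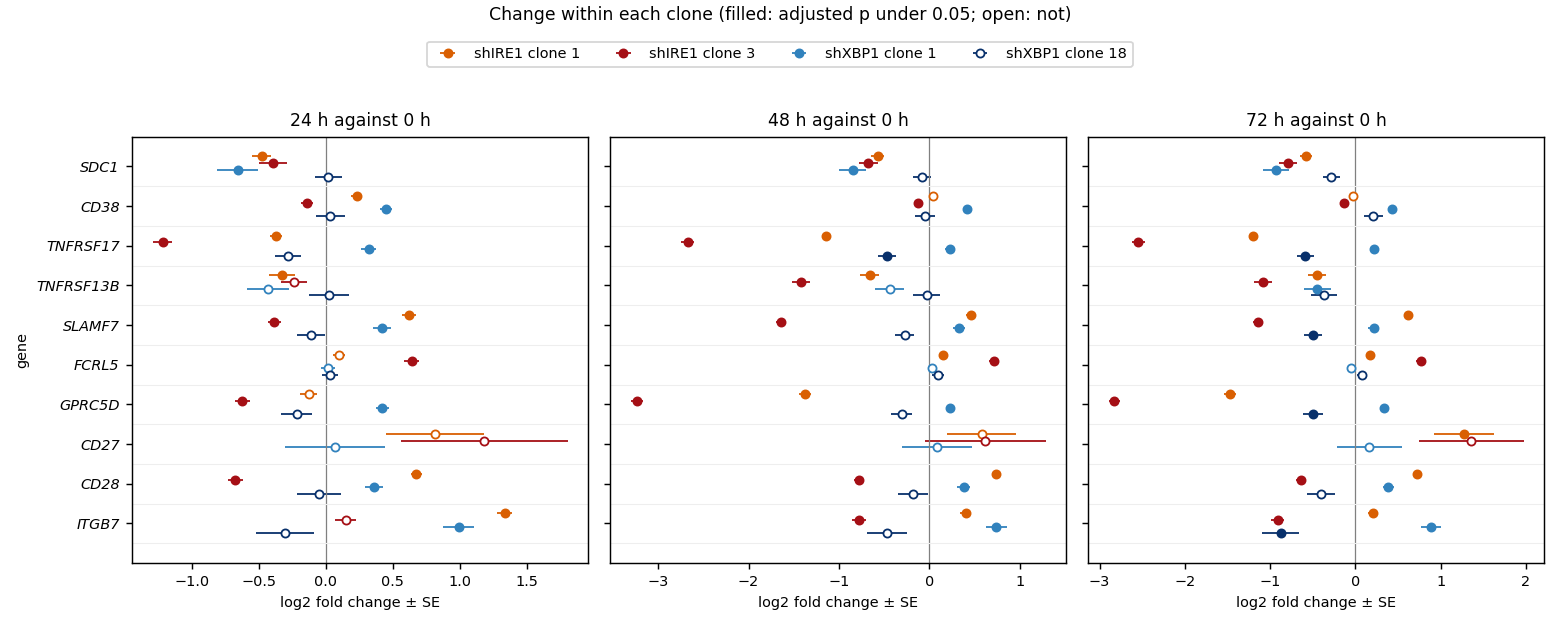
log2 fold change ± SE of each antigen against 0 h of its own clone at 24, 48 and 72 h, with filled points for adjusted p under 0.05. TNFRSF17 and GPRC5D are left of 0 in both shIRE1 clones, and SLAMF7, CD28 and ITGB7 are right of 0 in shIRE1 clone 1 and left of 0 in shIRE1 clone 3 at 48 and 72 h.

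SLAMF7, CD28 and ITGB7 went in opposite directions in the 2 shIRE1 clones at 48 and 72 h. SLAMF7 (chr1:160739057-160754821, plus strand) is a self-binding receptor of lymphoid cells. CD28 (chr2:203706475-203738912, plus strand) is a costimulatory receptor that myeloma cells can carry, and ITGB7 (chr12:53191323-53207282, minus strand) is the integrin chain that pairs with ITGA4 in homing to the gut. CD28 had 94.1, 91.7 and 90.1 CPM at 0 h in shIRE1 clone 1 and 153, 150 and 154 at 72 h, a rise of 0.72 ± 0.04 (adjusted p = 7.4e-12). Clone 3 went from 216, 230 and 229 CPM to 136, 146 and 155, a change of -0.64 ± 0.06 (adjusted p = 9.5e-08). The 72 h responses of these clones differed by 1.35 ± 0.15 (adjusted p = 5.2e-09), yet their 72 h levels overlapped, with a ratio of means of 1.04 against 0.409 at 0 h. In shXBP1 clone 1 CD28 rose from 100.1, 117 and 114 CPM to 144, 148 and 148, to the same range as the shIRE1 clones, a change of 0.39 ± 0.07 (adjusted p = 0.0014). In shXBP1 clone 18 the 72 h libraries were at 281, 284 and 150 CPM, of which the last is the one that stood apart, and the change of -0.40 ± 0.17 did not pass (adjusted p = 0.14), nor did -0.16 without it (adjusted p = 0.063). The mean response of the shIRE1 clones minus that of the shXBP1 clones was 0.05 at 72 h, with an interval of -0.16 to 0.26, and it was called at no time with all libraries. Without the library that stood apart it was called at 24 h (-0.17; adjusted p = 0.0051) and 48 h (-0.13; adjusted p = 0.029).

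SLAMF7 had 103, 93.1 and 86.1 CPM at 0 h, 148, 143 and 144 at 24 h and 140, 145 and 149 at 72 h in shIRE1 clone 1, a 72 h rise of 0.62 ± 0.05 (adjusted p = 5.3e-09). Its values in shIRE1 clone 3 were 190, 187 and 190 CPM at 0 h, 153, 137 and 146 at 24 h, 61.2, 59.6 and 61.5 at 48 h and 84.6, 85.2 and 88.5 at 72 h, with a 48 h change of -1.65 ± 0.05 (adjusted p = 1.1e-12). At 24 h the clones overlapped (ratio of means 0.997), and by 48 h clone 1 was 2.13 times as high. SLAMF7 rose in shXBP1 clone 1 (0.42 ± 0.06 at 24 h and 0.21 ± 0.06 at 72 h; adjusted p = 0.00074 and 0.024, the latter 0.051 without shXBP1 clone 1, 0 h, replicate 1 and 0.057 without 72 h, replicate 2) and was lower at 72 h in shXBP1 clone 18 (-0.49 ± 0.11; adjusted p = 0.013), also without the library that stood apart (-0.34; adjusted p = 0.00036). The difference between the shRNAs was called at 48 h, at -0.62 ± 0.08 (adjusted p = 8.7e-09). At 72 h it was -0.12 (adjusted p = 0.18), and -0.21 without the library that stood apart (adjusted p = 0.00062). Between the clones numbered 1 it had the opposite sign, 0.12 at 48 h and 0.38 at 72 h (adjusted p = 0.42 and 0.0055).

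In shIRE1 clone 1 ITGB7 had 28.7, 31.2 and 31.7 CPM at 0 h, 72.2, 77.7 and 81.6 at 24 h, and 34.1, 35.7 and 36.1 at 72 h. This peak of 1.33 ± 0.06 at 24 h (adjusted p = 5.8e-13) had shrunk to 0.21 ± 0.06 by 72 h (adjusted p = 0.007, and 0.27 with all libraries in the fit). In clone 3 it had 61.4, 56.9 and 65.1 CPM at 0 h, 64.2, 69.3 and 70.5 at 24 h and 34.8, 34.1 and 29.2 at 72 h, a 72 h change of -0.91 ± 0.08 (adjusted p = 9.4e-08). Both shIRE1 clones thus held 29.2 to 36.1 CPM at 72 h. shXBP1 clone 1 rose from 46.7, 41.2 and 36.4 CPM to 80.4, 78.2 and 73.7 (0.88 ± 0.12; adjusted p = 0.0002), and shXBP1 clone 18 went from 255, 238 and 254 CPM to 180, 153 and 72.4 (-0.88 ± 0.22; adjusted p = 0.025, and -0.58 with adjusted p = 0.00038 without the last library). The difference between the shRNAs was 0.39 ± 0.15 at 24 h and -0.35 ± 0.15 at 72 h, each close to the threshold (adjusted p = 0.037 and 0.048), and each call was lost in 17 of the 25 and 24 fits that left out 1 library (adjusted p up to 0.1 without shXBP1 clone 1, 24 h, replicate 1, and 0.16 without shXBP1 clone 18, 72 h, replicate 1). Without the library that stood apart it was 0.38, -0.33 and -0.52 at 24, 48 and 72 h, all called (adjusted p = 0.00058, 0.0019 and 1e-05). With it the 48 h value, -0.33, was not called (adjusted p = 0.065). Exons of ITGB7 and ZNF740, on the opposite strand, overlap.

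At 0 h, 22 genes separated shIRE1 clones 1 and 3 by 2.5 or more on the log2 scale and 218 separated the shXBP1 clones. At all 3 times after doxycycline, a stricter count than that at 1 time, 0 and 30 did. The 72 h libraries behind the 30 include the library that stood apart, which lay nearer the other shXBP1 clone. Its part in the 30 was not tested. Among the members, 8, 6, 7 and 5 of 10 did not overlap between the shIRE1 clones at 0, 24, 48 and 72 h, against 50.5%, 21%, 46.2% and 33.7% of all genes tested. Between the shXBP1 clones 7, 8, 8 and 2 did not, against 57%, 40.1%, 44% and 20.3%, and at 72 h 8 did not without the library that stood apart, against 50.4%. The part of the 0 h libraries in the opposite directions of SLAMF7, CD28 and ITGB7 was not tested.

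Relatives of these receptors were fewer. Of 10 SLAM family genes and adaptors 3 passed the filter in shIRE1 clones. LY9, a SLAM receptor, rose there by 1.39 and 0.80 at 72 h. Of these 3, 2 rose and 0 fell in shIRE1 clone 1, and 1 rose and 1 fell in clone 3. In shXBP1 clone 1 all 3 tested rose, LY9 included. In shXBP1 clone 18, 4 were tested and 0 called, while LY9 was lower without the library that stood apart (-0.23, adjusted p = 0.0068). Of 8 ligands and relatives of CD27 and CD28, 5 of 5 tested rose in shIRE1 clone 1 and 3 of 5 in clone 3 at 72 h. In shXBP1 clones 1 and 18, 2 and 3 were tested and 0 were called. A gene was tested only where it passed the filter in that clone, which a low gene can do through treated libraries alone. These counts can therefore not be compared between the constructs. For the lists here, 63.6% and 60.2% of all genes tested were called at 72 h in shIRE1 clones 1 and 3. In shXBP1 clones 1 and 18 it was 33.6% and 9.96%. CD80, a CD28 ligand, and PDCD1, an inhibitory receptor, rose by 4.31 and 1.89 in shIRE1 clone 1 and 4.90 and 4.46 in shIRE1 clone 3, to at most 2.17 and 2.05 CPM. CD70, the ligand of CD27, was at 130 to 299 CPM in every library. Of 11 integrin partners and adhesion receptors 8 were tested, and 4 rose and 4 fell in shIRE1 clone 1 and 5 rose and 3 fell in clone 3 at 72 h. ITGA4, the partner of ITGB7, fell in both, with changes of -0.79 and -0.89, and ran from 330 to 1029 CPM over all libraries. CDH1, E-cadherin, rose by 0.66 and 2.02 and stayed at or under 3.54 CPM.

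At 72 h CD38 (chr4:15778275-15853232, plus strand) changed least of the 10 in both shIRE1 clones. It had 228, 213 and 213 CPM at 0 h and 213, 212 and 217 at 72 h in shIRE1 clone 1, with a called rise at 24 h alone (0.23 ± 0.04; adjusted p = 5e-05). In clone 3 it had 288, 272 and 275 CPM against 254, 257 and 260, a change of -0.13 ± 0.04 (adjusted p = 0.016, but 0.051 without 72 h, replicate 1 and 0.15 with all libraries in the fit). By contrast it rose in shXBP1 clone 1 from 199, 215 and 200 CPM to 280, 281 and 279 (0.43 ± 0.04; adjusted p = 3.9e-05). In shXBP1 clone 18 it had 191, 197 and 185 CPM at 0 h and 184, 199 and 276 at 72 h, 0.21 ± 0.11 (adjusted p = 0.24) with the last library and 0.01 without it (adjusted p = 0.95). The mean change of the shIRE1 clones minus that of the shXBP1 clones was -0.20 ± 0.07, -0.22 ± 0.07 and -0.40 ± 0.07 at the 3 times (adjusted p = 0.018, 0.0059 and 6.1e-06), and -0.31 at 72 h without the library that stood apart. Within single pairs of clones it was not called at 24 h, nor at 48 h for shIRE1 clone 3 against shXBP1 clone 18. Among 5 other ectoenzymes 2 rose and 2 fell in each shIRE1 clone at 72 h, and 2 rose and none fell in shXBP1 clone 1. The shares of all genes called were 63.6%, 60.2% and 33.6% in shIRE1 clones 1 and 3 and shXBP1 clone 1. NT5E (CD73) rose by 1.27 and 1.25 and ENTPD1 (CD39) by 1.09 and 0.78 in shIRE1 clones 1 and 3, enzymes that make adenosine from nucleotides.

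Counted over the members, the response of the shIRE1 clones minus that of the shXBP1 clones was called for 5, 6 and 6 of 10 antigens at 24, 48 and 72 h, against 38.7%, 56.9% and 55.3% of all genes. TNFRSF17, GPRC5D and CD38 were more negative and FCRL5 more positive at each time. Without the library that stood apart the counts were 6, 8 and 7, against 40%, 57.5% and 54.3%. Between clones of a construct at 72 h, the responses differed for 7 members in shIRE1 (27.5% of all genes) and for 6 in shXBP1 (24.6%), and without that library for 7 (29.7%) and 8 (19.8%). CD38, SDC1 and CD27 were the members whose response was not shown to differ between the shIRE1 clones.

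**Figure D4:**
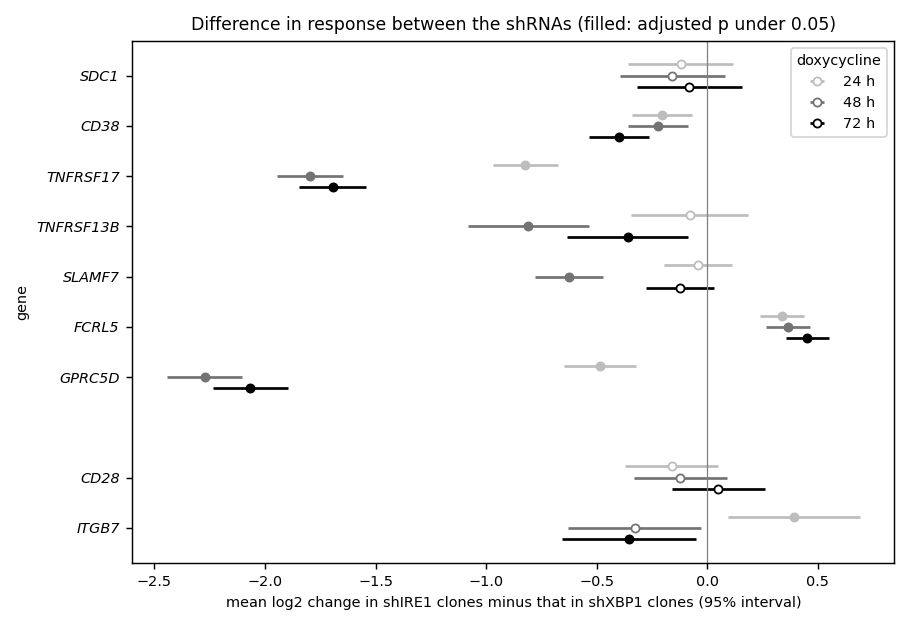
Mean log2 change of the shIRE1 clones minus that of the shXBP1 clones for 9 antigens (CD27 left out for its low counts), with 95% intervals, at 24, 48 and 72 h, filled where adjusted p is under 0.05. TNFRSF17 and GPRC5D lie between -2.27 and -1.69 at 48 and 72 h, FCRL5 lies at 0.34 to 0.45, and the intervals of SDC1 span 0. The intervals do not cover the spread between clones of a construct.

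Other antigens and receptors used against or to sort plasma cells were mixed. Of 16 tested, 7 rose and 5 fell in shIRE1 clone 1 at 72 h, 6 rose and 7 fell in clone 3, and 3 rose and 4 fell in shXBP1 clone 1. In shXBP1 clone 18, 5 of 17 tested fell and none rose (6 and none without the library that stood apart). The shares of all genes called were 63.6%, 60.2%, 33.6% and 9.96% in this order of clones (7.57% in the last without that library). IL6R, the receptor of a main myeloma growth factor, fell in the shIRE1 clones, with changes of -2.21 and -4.05 within a range of 2.71 to 99.3 CPM over all libraries. CD74, the invariant chain, rose by 1.33 and 1.25. In the shXBP1 clones CD59, a complement inhibitor, fell, with changes of -1.21 and -1.28, and so did CCR10, a chemokine receptor, with -1.37 and -0.89. Without the library that stood apart the values in clone 18 were -1.23 and -0.71, both called (adjusted p = 2.7e-09 and 0.031).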

How the data were processed

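RNA from 48 AMO1 libraries was sequenced as stranded mRNA libraries. The deposited counts are whole reads per gene for 58302 genes. The submitters' processing notes name GSNAP, R 4.1.3, edgeR 3.32.1, limma 3.46.0 and GRCh37 (hg19), and strand use in counting was not given in the sources used here. The deposited log2 values, for 18401 genes, equalled log2 CPM computed from the counts with edgeR (prior count 2).

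Groups came from the genotype and treatment labels. Counts were fitted with edgeR 4.0.16 (R 4.3.3; TMM, filterByExpr with a minimum count of 10 and total of 15, quasi-likelihood test, Benjamini-Hochberg over all genes tested, threshold 0.05). Changes within a clone used its 12 libraries, and differences between shRNAs or clones used all 48 (18445 genes). Libraries within groups gave the error of each test, so differences between shRNAs carry no error for the spread between clones. Intervals of 95% are normal intervals from the SE. The code was tested on simulated data. DESeq2 1.42.0, limma 3.58.1, RLE factors, no filter, other sets of libraries and left-out libraries were alternatives. Loci and exon lengths are from GENCODE 44 (GRCh38), and no coordinate of the authors' build was used.

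The members and lists were chosen with earlier results of these data known. Named were the 10 members, ERN1, XBP1 and IRF4, at most 2 genes per list that changed alike in both clones of an shRNA at 72 h, and the 3 genes most like a member. Other list genes are counts only, except that CD70, CD27-AS1, TAPBPL and the marker genes were named after their values were seen, as were the counts of genes that set clones apart and the fits of the lists without the shXBP1 clone 18 library that stood apart.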

Additional observations from a re-analysis of the deposited data

Results flagged for a closer look

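The change of the shIRE1 clones minus that of the shXBP1 clones, tested as an interaction over all 48 libraries with edgeR, differed from 0 for these antigens. The test took its error from libraries within groups, so it does not cover the spread between clones. At 24 h the log2 differences were -0.82 for TNFRSF17, -0.48 for GPRC5D, -0.20 for CD38, 0.34 for FCRL5 and 0.39 for ITGB7. At 48 h they were -2.27 for GPRC5D, -1.80 for TNFRSF17, -0.81 for TNFRSF13B, -0.62 for SLAMF7, -0.22 for CD38 and 0.37 for FCRL5. At 72 h they were -2.07 for GPRC5D, -1.69 for TNFRSF17, -0.40 for CD38, -0.36 for TNFRSF13B, -0.35 for ITGB7 and 0.45 for FCRL5.

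Clones of the same construct differed in their 72 h response as well. For shIRE1 clone 1 minus clone 3 the differences were 1.76 for SLAMF7, 1.35 for CD28, 1.35 for GPRC5D, 1.33 for TNFRSF17, 1.11 for ITGB7, 0.63 for TNFRSF13B and -0.60 for FCRL5. The TNFRSF13B call was lost without shIRE1 clone 1, 0 h, replicate 1, shIRE1 clone 3, 0 h, replicate 3 or shIRE1 clone 3, 72 h, replicate 1 (adjusted p = 0.064, 0.062 and 0.055). For shXBP1 clone 1 minus clone 18 they were 1.78 for ITGB7, 0.85 for GPRC5D, 0.84 for TNFRSF17, 0.82 for CD28, 0.74 for SLAMF7 and -0.62 for SDC1. Without the shXBP1 clone 18 library that stood apart these last values were 1.45, 0.64, 0.67, 0.54, 0.55 and -0.66, all called, and CD38 at 0.41 and FCRL5 at -0.19 were called too.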

How the results depend on the processing

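Of 227 values for the antigens, 147 were called, and 120 of those kept direction and call under every alternative that gave a value. Of 3384 alternative values, 113 lost the call, 91 gained one, and 3178 stayed on their side of the threshold, of which 43, not called either way, had the opposite sign. In 2 others the sign turned where either value was called: SLAMF7, shIRE1 minus shXBP1, was 0.12 at 48 h and 0.38 at 72 h with the clones numbered 1 alone. That pair called 2 antigens at 24 h and 3 at 48 h, and 4754 genes at 24 h against 7144 with all clones, with fewer libraries. In shXBP1 clone 18 the antigens called at 24, 48 and 72 h numbered 2, 4 and 8 without the filter, 3, 5 and 1 with only the 6 libraries compared, 1, 4 and 7 with all 48 in the fit, and 0 to 3, 0 to 5 and 1 to 7 when 1 library was left out. All genes called there ran from 106 to 874, 296 to 2983 and 444 to 3345, around 268, 974 and 1680, and in shXBP1 clone 1 from 2086 to 5824, 3347 to 6685 and 3715 to 6858, around 4430, 5320 and 5584. Between the untreated clones numbered 1, 3 to 6 antigens were called when 1 library was left out, and 2456 genes against 5961 without shXBP1 clone 1, 0 h, replicate 1. With under 1 CPM in every library as the rule for absence, 1 antigen, CD27, was absent, against 0. Plain totals in place of TMM moved 73 of 160 group means by over 1 SD. The causes were not tested.

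Replicate numbers did not pair the libraries: 5 of 72 same-number pairs correlated over 0.1 (-0.41 to 0.25), and 10 of 48 libraries correlated best with their own number. With the replicate block, 3 of 167 values lost their call, TNFRSF13B in shXBP1 clone 1 at 72 h (-0.45, adjusted p = 0.08) and ITGB7, shIRE1 minus shXBP1, at 24 h (0.39, adjusted p = 0.062) and 72 h (-0.34, adjusted p = 0.083), and none was gained.

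CD27, at 1 to 27 counts, and clones without a non-targeting control limit what can be read here.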
